A study of Mus musculus with 4 samples.

Results

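The transforming growth factor-β (TGF-β) system was described here by 10 genes, chosen by gene symbol: the ligands *Tgfb1*, *Tgfb2* and *Tgfb3*, the receptors *Tgfbr1*, *Tgfbr2* and *Tgfbr3*, and the latent TGF-β binding proteins *Ltbp1*, *Ltbp2*, *Ltbp3* and *Ltbp4*. All 10 were among the 45802 gene symbols of the expression table and among the 14415 genes with a value in every library. The 4 libraries came from periosteal cells, the cells of the sheath around the bone, of male Pdgfrα mT/mG mice. In these mice a tamoxifen-inducible Cre under *Pdgfrα* control turns a cell and its descendants from red (membrane tdTomato) to green (membrane GFP). The reporter thus marks cells in which the promoter was active around dosing, and their descendants. It does not record activity of the promoter at sorting. Mice of 2 months received tamoxifen at 150 mg/kg/day for 5 days, and femurs and tibias were digested 14 days after the last dose. By the sample labels, cells of 3 to 6 mice aged 9 to 10 weeks were pooled for a population (the methods of the study give a larger pool), grown for 1 passage in medium with bFGF at 10 ng/mL, and sorted as negative for CD31, CD45 and Ter119. PDGFRα reporter+ cells (GFP, 2 libraries) were compared with PDGFRα reporter− cells (tdTomato, 2 libraries), and mice, tamoxifen and culture were the same kind for both populations.

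TGF-β ligands are secreted in a latent form, bound to the propeptide of their own precursor. Latent TGF-β binding proteins tie most of this complex to fibrillin and fibronectin in the matrix, and integrins, proteases or thrombospondin release the active ligand from it. The active ligand binds the type II receptor, which phosphorylates the type I receptor and through it SMAD2 and SMAD3. In bone, matrix-bound TGF-β is known as a store that is freed during remodelling and acts on osteoprogenitors, and it is a regulator of periosteal chondrogenesis and repair.

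Values were log2 expression values after quantile normalization, 1 per gene and library. The unit under the logarithm was not stated, so that levels are compared between libraries for 1 gene and not between genes, and the sequencing depth and counting error of each value are unknown. The table headed its columns with a population and a number, 2 or 3, which does not match the replicate numbers of the sample labels. Libraries are therefore named by population and heading number, in the order reporter+ 2, reporter+ 3, reporter− 2, reporter− 3. With 2 libraries a population, no exact permutation p can fall under 0.33, and since the sources do not say for these libraries whether the 2 of a population came from separate pools of mice, p-values cover only the spread between these libraries.

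Sorted stromal identity was checked on markers. All 8 stromal markers had a value in every library, and their summed linear level, the sum of 2 to the power of the log2 value (in which the unstated unit sets how much each gene weighs), was 4540, 3421, 4216 and 3257, with overlapping populations. The transcript *Pdgfra* itself overlapped between the populations, with log2 values of 7.78, 7.62, 7.87 and 7.44. Markers of other cell types were measured beside them. Macrophage markers summed to 247, 289, 98.4 and 185, higher in both reporter+ libraries, and all 13 of 14 that had a value throughout had a positive log2 fold change, with a median of 0.99. The 8 smooth muscle and pericyte markers summed to 14.1, 6.87, 19.1 and 10.3. The endothelial markers, 6 of 8 of them with a value throughout, summed to 0.317, 1.24, 1.23 and 3.91. Both sums were lower in reporter+ at either number, but over all 4 libraries the populations overlapped. Of the 8 smooth muscle and pericyte markers 2 averaged 0 or more on the log2 scale, and of those 6 endothelial markers 0 did. Platelet and megakaryocyte markers, 5 of 7 with a value throughout, summed to 5.66, 4.03, 3.45 and 2.82, with *Gp1ba* and *Gp9* blank throughout, and *Cd3e*, *Cd8a* and *Ms4a1* of the T and B cell list were blank too. The part of these cells in the results below was not tested, and in bulk libraries fewer cells of a type and less RNA per cell cannot be told apart.

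**Figure D1:**
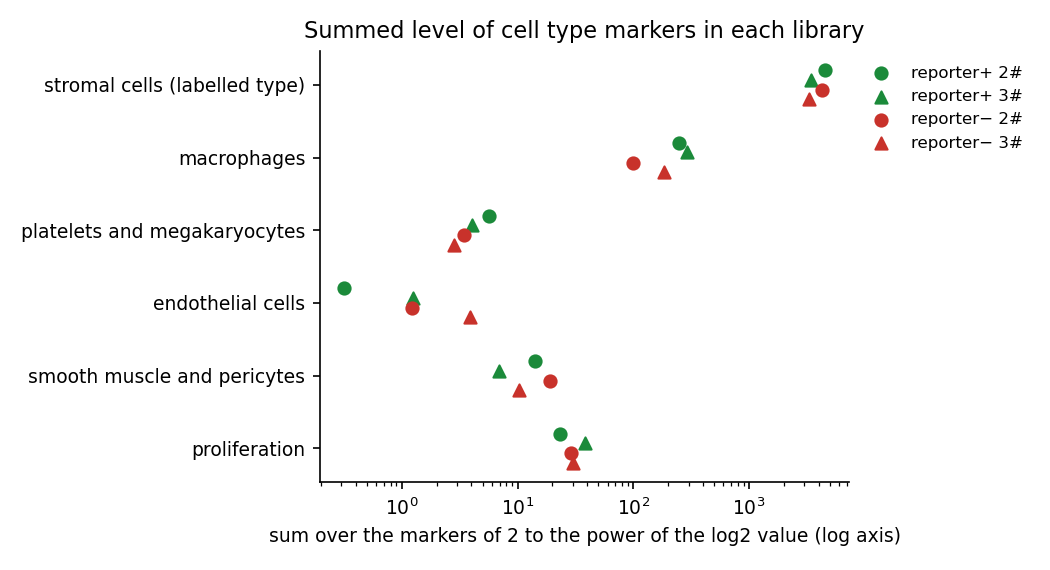
Summed linear level of the cell type marker lists in the 4 libraries, on a log axis. The T and B cell list is not drawn. Points are single libraries, green for reporter+ and red for reporter−, with circles for number 2 and triangles for number 3. Macrophage sums of 247 and 289 in reporter+ lie above 98.4 and 185 in reporter−, while the stromal sums overlap.

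The sequences upstream of 4 members are shown because these genes stood for the 2 patterns in the data: *Tgfb2* and *Ltbp1* had the largest differences between populations of the 10, and *Tgfb1* and *Ltbp2* overlapped between populations and differed between heading numbers. They are RefSeq windows of the 250 bases before an annotated start on GRCm38.p6, found for 8 of the 10 members, and *Ltbp2* is shown without the 41 bases that lie inside its GENCODE gene span. Each runs 5′ to 3′ on the gene's own strand. Capitals mark the letters searched on both strands: CAGAC (the SMAD-binding box), GGGCGG (the GC box of SP1-type factors), TATAA, and TGACGTCA (the cyclic AMP response element).
Tgfb1, chr7:25686752-25687001, plus strand: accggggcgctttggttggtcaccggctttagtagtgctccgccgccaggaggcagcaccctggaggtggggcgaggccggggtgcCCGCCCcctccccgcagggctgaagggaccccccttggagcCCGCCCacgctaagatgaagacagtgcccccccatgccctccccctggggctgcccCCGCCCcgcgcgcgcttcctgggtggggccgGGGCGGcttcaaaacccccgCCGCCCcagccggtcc
Tgfb2, chr1:186705990-186706239, minus strand: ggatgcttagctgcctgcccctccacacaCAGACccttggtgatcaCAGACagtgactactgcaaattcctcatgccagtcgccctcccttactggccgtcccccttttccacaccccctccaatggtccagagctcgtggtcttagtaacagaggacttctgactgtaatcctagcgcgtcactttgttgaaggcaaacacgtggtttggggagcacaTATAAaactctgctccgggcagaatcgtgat
Ltbp1, chr17:75005279-75005528, plus strand: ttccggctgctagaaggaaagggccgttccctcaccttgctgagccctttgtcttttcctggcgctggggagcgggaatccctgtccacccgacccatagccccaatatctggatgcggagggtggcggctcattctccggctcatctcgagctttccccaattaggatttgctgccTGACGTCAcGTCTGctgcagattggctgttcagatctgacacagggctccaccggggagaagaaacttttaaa
Ltbp2, chr12:84876533-84876741, minus strand: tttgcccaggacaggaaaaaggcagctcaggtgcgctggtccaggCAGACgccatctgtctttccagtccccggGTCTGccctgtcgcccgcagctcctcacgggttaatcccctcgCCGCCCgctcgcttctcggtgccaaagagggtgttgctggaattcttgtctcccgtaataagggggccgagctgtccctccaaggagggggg

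The windows of both ligands were unlike each other. The *Tgfb1* window had 75.2% G and C, with 5 GC boxes and no TATAA. The *Tgfb2* window had 53.6% G and C, near the median of 52.4% over all windows, with TATAA at positions −31 to −27 counted back from the start, 2 SMAD boxes and no GC box. The *Ltbp1* window held TGACGTCA at −73 to −66 and a SMAD box beside it, and the printed *Ltbp2* bases held 2 SMAD boxes and 1 GC box. Over all 32851 windows of 250 bases, CAGAC was found in 42.2%, GGGCGG in 32.7%, TATAA in 22.8% and TGACGTCA in 1.55%. These matches describe letters only and are no evidence of binding.

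No member passed the test between populations. In limma with Benjamini-Hochberg adjustment over all genes the adjusted p of each of the 10 was 1, and it called 0 of the 14415 genes (0%). At an unadjusted p under 0.05, 1 member was higher in reporter+ cells, *Tgfb2*, where 0.451% of all genes were higher and 0.458% lower. That count was 0 without the variance trend and 0 when any 1 of the 4 libraries was left out. Both reporter+ libraries lay above both reporter− libraries for 1 member, again *Tgfb2*, against 7.59% of all genes. They lay below for 3 members, *Tgfbr2*, *Ltbp1* and *Ltbp4*, against 8.1% of all genes, and for the other 6 the populations overlapped. The median log2 fold change over the 10 was −0.0063, beside −0.0035 over all genes tested, but it was −0.235 without reporter+ 2 and −0.210 without reporter− 3, −0.028 without reporter− 2 and −0.021 without reporter+ 3. The counts without overlap then ran from 1 to 3 above and from 3 to 6 below. With 3 libraries values separate more easily than with 4, and no share over all genes was computed for 3. These counts are therefore not a result about the members. The median absolute log2 fold change over the 10 was 0.166, beside 0.0894 over the 10224 genes averaging 0 or more on the log2 scale.

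**Figure D2:**
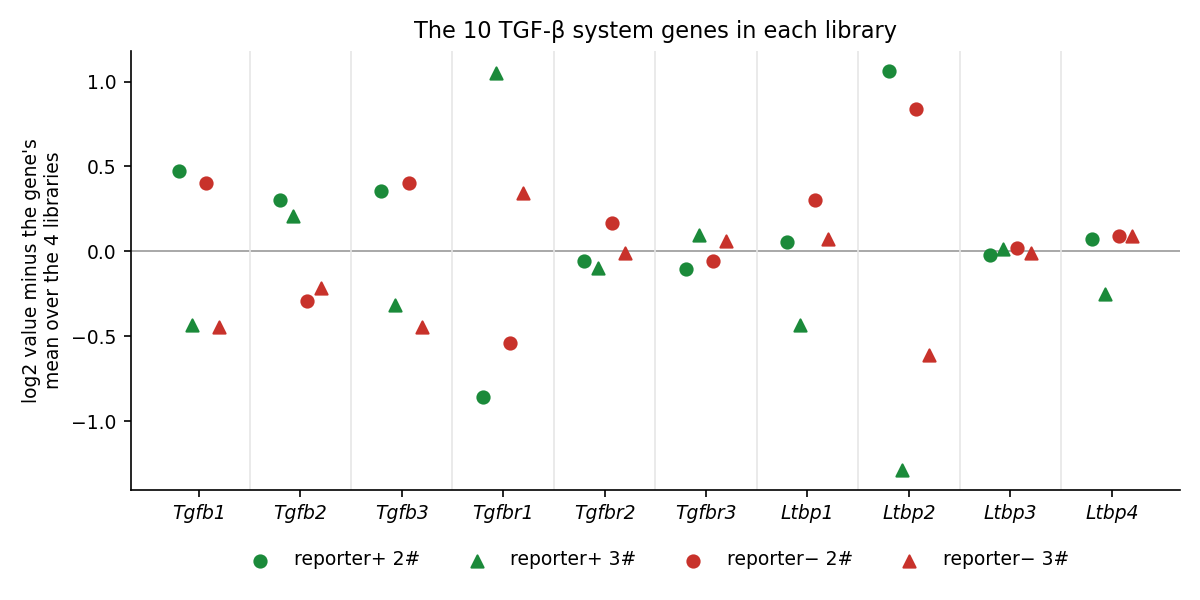
Log2 value of each of the 10 genes in each library minus the gene's mean over the 4 libraries. Green marks reporter+ and red reporter−, circles are libraries numbered 2 and triangles those numbered 3. *Tgfb2*, *Tgfbr2*, *Ltbp1* and *Ltbp4* separate by colour, and *Tgfb1*, *Tgfb3*, *Tgfbr1*, *Tgfbr3* and *Ltbp2* by shape. The 4 points of *Ltbp3* span 0.04.

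Among the ligands, *Tgfb2* was the one that separated by population. *Tgfb2* (chromosome 1, 186622792 to 186705989 on GRCm38, minus strand) encodes a ligand that needs the co-receptor betaglycan for high-affinity binding to the type II receptor. Its log2 values were 3.34 and 3.25 in reporter+ and 2.74 and 2.82 in reporter− libraries, so that all 4 lay close to the level of their own population. The means were 3.29 ± 0.06 (SD, n = 2) and 2.78 ± 0.05 (SD, n = 2), and the difference was 0.59 between libraries numbered 2 and 0.43 between those numbered 3. The log2 fold change was 0.51 (SE 0.15, 95% interval 0.12 to 0.90, adjusted p = 1), a linear ratio of 1.42. It was larger in size than that of 96.6% of the genes averaging 0 or more, and the difference between heading numbers was small, at −0.09 in reporter+ and 0.07 in reporter− cells. The summed macrophage markers moved the same way, by a ratio of 2.51 at number 2 and 1.57 at number 3, although the cells had been sorted as negative for CD45. *Ptprc*, the CD45 gene, had a log2 fold change of 0.93 with overlapping populations, and the part of these cells in the *Tgfb2* values was not tested. GENCODE places the antisense gene *Gm29491*, which has no row of its own in the table, across the start of *Tgfb2*.

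*Tgfb1* and *Tgfb3* overlapped between populations and followed the heading number instead. *Tgfb1* (chromosome 7, 25687002 to 25705077, plus strand), the isoform most abundant in bone matrix, had log2 values of 2.22 and 1.32 in reporter+ and 2.15 and 1.30 in reporter− libraries. Both libraries numbered 2 were high and both numbered 3 were low, and at either number the populations lay within 0.07 of each other. This left a log2 fold change of 0.04 (SE 0.45, 95% interval −1.17 to 1.25). Platelets are a known source of *Tgfb1*. Of the 5 platelet and megakaryocyte markers with a value throughout, 2 were lower in both libraries numbered 3, 1 was higher and 2 overlapped, and the cells had been sorted as negative for CD31, which platelets carry. Their part in the *Tgfb1* values was not tested.

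*Tgfb3* (chromosome 12, 86056745 to 86079041, minus strand), a ligand known from palate and tendon development, had log2 values of 3.82 and 3.15 in reporter+ and 3.87 and 3.02 in reporter− libraries. The fall from number 2 to number 3 was 0.67 in reporter+ and 0.85 in reporter− cells, close to that of *Tgfb1*. Between populations the log2 fold change of *Tgfb3* was 0.04 (SE 0.39, 95% interval −0.99 to 1.07). *Ttll5* overlaps its 3′ end on the other strand, and whether counting used the strand was not stated. *Ttll5* had a log2 fold change of 0.04 as well.

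**Figure D3:**
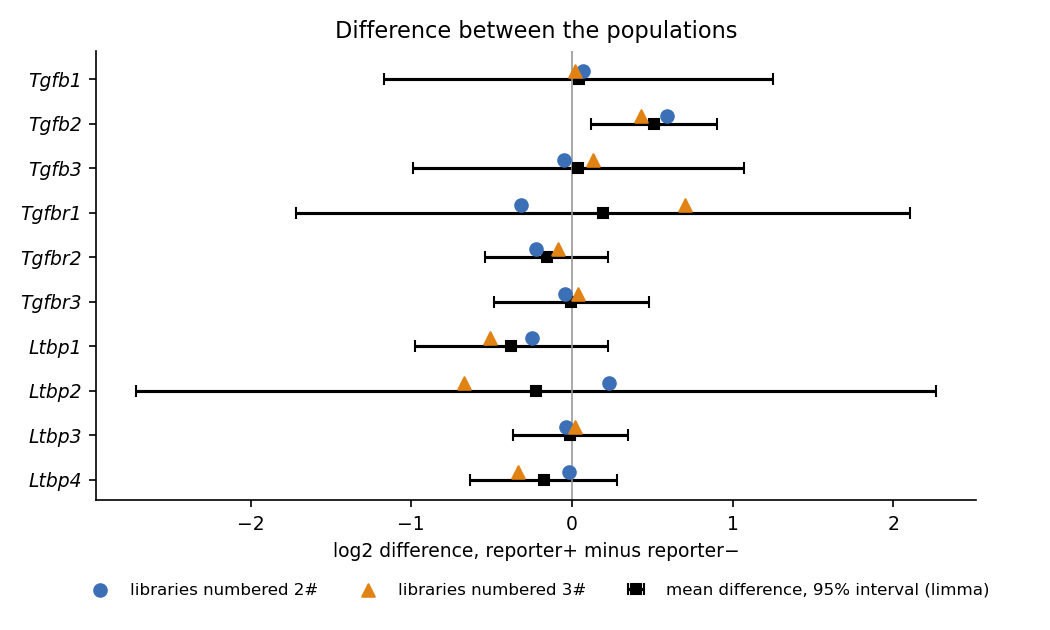
Log2 difference of reporter+ minus reporter− for each gene. Blue circles are the libraries numbered 2, orange triangles those numbered 3, and black squares the mean difference with its 95% interval from limma. The interval of *Tgfb2*, 0.12 to 0.90, does not reach 0 in this fit, which has all 4 libraries, a variance trend and no block, and those of the other 9 genes do.

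None of the receptors passed the test between populations, and *Tgfbr2* alone of the 3 did not overlap. *Tgfbr1* (chromosome 4, 47353222 to 47414931, plus strand), the type I receptor kinase ALK5 that phosphorylates SMAD2 and SMAD3, had log2 values of 2.14 and 4.05 in reporter+ and 2.46 and 3.35 in reporter− libraries. Both libraries numbered 3 were high and both numbered 2 were low, and reporter+ held the lowest and the highest of the 4. The range over the libraries was 1.90, wider than that of 96.7% of genes averaging 0 or more. The difference of reporter+ minus reporter− turned with the number, from −0.32 at number 2 to 0.70 at number 3, and the 95% interval of the log2 fold change of 0.19 (SE 0.72) ran from −1.72 to 2.10.

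*Tgfbr2* (chromosome 9, 116084293 to 116175360, minus strand), the type II receptor that binds the ligand, was steadier. Its log2 values were 4.76 and 4.72 in reporter+ and 4.98 and 4.81 in reporter− libraries, with both reporter+ libraries below both reporter− libraries. Reporter+ was lower by 0.23 at number 2 and by 0.09 at number 3. The 95% interval of the log2 fold change of −0.16 (SE 0.14) ran from −0.54 to 0.23 and held 0.

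*Tgfbr3* (chromosome 5, 107106570 to 107289629, minus strand), the co-receptor betaglycan, had log2 values of 6.88 and 7.08 in reporter+ and 6.93 and 7.05 in reporter− libraries. The reporter− values lay between the reporter+ values, and the log2 fold change was −0.0030 (SE 0.18, 95% interval −0.49 to 0.48). Both libraries numbered 3 were slightly higher, by 0.20 in reporter+ and 0.12 in reporter− cells.

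The latent binding proteins ranged from the steadiest to the most variable of the 10 genes. *Ltbp1* (chromosome 17, 75005568 to 75392512, plus strand), which carries the latent complex to fibronectin and fibrillin, had log2 values of 5.61 and 5.12 in reporter+ and 5.86 and 5.63 in reporter− libraries. Both reporter+ libraries were lower, by 0.25 at number 2 and 0.51 at number 3, although the nearest pair, reporter+ 2 and reporter− 3, lay close together. Over both numbers the log2 fold change was −0.38 (SE 0.23, 95% interval −0.98 to 0.22), a linear ratio of 0.770. The summed smooth muscle and pericyte markers were lower in reporter+ at both numbers too, with ratios of 0.740 and 0.668, but the populations overlapped. *Cspg4* weighed most of the 8 in every sum, with log2 values of 3.32 and 0.84 in reporter+ and 3.74 and 1.90 in reporter− libraries. Of these 8 markers 6 had a negative and 2 a positive log2 fold change, and *Kcnj8* went the other way at 0.94. Their part in the *Ltbp1* values was not tested.

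*Ltbp2* (chromosome 12, 84783212 to 84876532, minus strand) binds fibrillin but, unlike the other members of its family, is known not to bind latent TGF-β. Its log2 values were 7.46 and 5.11 in reporter+ and 7.24 and 5.79 in reporter− libraries, both numbered 2 high and both numbered 3 low. The change from number 2 to number 3 was −2.35 in reporter+ and −1.45 in reporter− cells, and its mean of −1.90 was larger in size than that of 98.4% of genes averaging 0 or more. Between populations the difference was 0.23 at number 2 and −0.67 at number 3, and the log2 fold change was −0.22 (SE 0.93, 95% interval −2.71 to 2.27).

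*Ltbp3* (chromosome 19, 5740904 to 5758532, plus strand), loss of which is known to disturb skeletal growth and tooth enamel, was nearly level. Its log2 values were 5.28 and 5.31 in reporter+ and 5.32 and 5.29 in reporter− libraries. The range of 0.04 was wider than that of only 0.225% of genes averaging 0 or more, and the log2 fold change was −0.0095 (SE 0.13, 95% interval −0.37 to 0.35).

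*Ltbp4* (chromosome 7, 27305136 to 27337692, minus strand), which also has a part in elastic fibre assembly, had log2 values of 3.66 and 3.34 in reporter+ and 3.67 and 3.67 in reporter− libraries. The populations did not overlap, but 3 of the 4 values were nearly equal and reporter+ 3 alone was low. The difference was −0.02 at number 2 and −0.34 at number 3, with a log2 fold change of −0.18 (SE 0.17, 95% interval −0.63 to 0.28).

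Heading numbers separated 5 of the 10 members without overlap, and populations 4. Both libraries numbered 3 lay above both numbered 2 for 2 members, *Tgfbr1* and *Tgfbr3*, where 36.4% of all genes did so. They lay below for 3 members, *Tgfb1*, *Tgfb3* and *Ltbp2*, where 28.8% of all genes did so, and the other 5 overlapped. The count of 3 in 10 was near its share over all genes, and that of 2 in 10 was under it. The median absolute difference between numbers was 0.259 over the members and 0.244 over the genes averaging 0 or more.

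**Figure D4:**
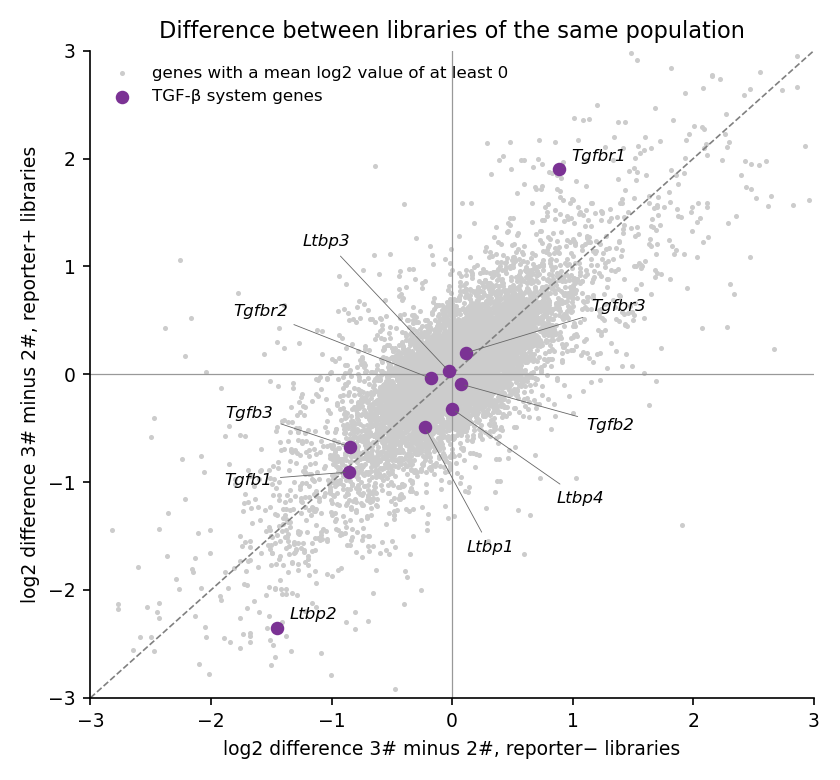
Log2 difference of library 3 minus library 2 in reporter− cells (horizontal) and in reporter+ cells (vertical), with the 10 genes in purple and 10149 genes averaging 0 or more on the log2 scale in grey. The dashed line marks equal differences, and 75 genes beyond 3 on either axis are not drawn. *Ltbp2*, *Tgfb1* and *Tgfb3* lie to the lower left and *Tgfbr1* to the upper right, with the same direction in both populations.

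For the 3 members with the widest range over the libraries, the 3 pathway genes with the nearest profile were found by the Euclidean distance of centred log2 values over the 4 libraries, among 88 pathway genes. *Ltbp2* was nearest to *Fbln5* (distance 0.595), an elastic fibre protein with log2 values of 4.15, 2.61, 4.49 and 2.82, followed by *Junb* (0.945) and *Cdkn2b* (0.993). *Tgfbr1* was nearest to *Mmp2* (0.339), a gelatinase with log2 values of 6.94, 8.44, 7.10 and 8.16, followed by *Mfap2* (0.572) and *Ctgf* (0.599). *Tgfb1* was nearest to *Junb* (0.194), a transcription factor gene with log2 values of 6.22, 5.09, 6.17 and 5.19, followed by *Tgif1* (0.208) and *Itgb5* (0.221). All of these profiles followed the heading number, and 4 libraries can tell few shapes apart.

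The genes that act around the 10 members were read from 6 lists of the pathway. None of their genes passed the adjusted test in limma without a block, the adjusted p being 1 for each gene tested. In the lists of activation, matrix partners, accessory receptors and target genes, reporter+ lay above reporter− without overlap for 2 genes each and below for 2 each. These counts were 1 and 4 in the SMAD list and 0 and 3 in the activin branch. Of all genes, 7.59% lay above and 8.1% below. Of the 16 genes that store, process or activate latent TGF-β, 2 were higher and 1 lower in reporter+ cells at an unadjusted limma p under 0.05, where 0.451% and 0.458% of all genes were. The median log2 fold change of the list was −0.0078, and leaving out single libraries gave −0.171 to −0.024, the lowest without reporter− 3. *Mmp9*, a gelatinase that can release latent TGF-β, had log2 values of 3.21 and 3.89 in reporter+ and 2.18 and 1.41 in reporter− libraries, a log2 fold change of 1.75 (SE 0.37). *Itgb8*, the β subunit of the activating integrin αvβ8, had 1.80 and 2.23 against 1.48 and 0.97, a log2 fold change of 0.79 (SE 0.29). *Mmp9* is also a gene of myeloid cells, and the macrophage sums were higher in the same libraries, a part that was not tested.

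The lower gene was *Thbs1*, thrombospondin 1, a matrix protein that can activate latent TGF-β. Its log2 values were 6.66 and 6.80 in reporter+ and 8.19 and 7.80 in reporter− libraries, without overlap, and the log2 fold change was −1.26 (SE 0.22). The endothelial sums (ratios of 0.257 and 0.318) and the smooth muscle and pericyte sums were lower in reporter+ at either number. Both overlapped between populations over all libraries, and the part of such cells was not tested. The other named genes did not pass at p under 0.05: *Tgm2*, a transglutaminase that crosslinks the latent complex to matrix, at 0.43, and the integrin subunit genes *Itgb3* at −0.58 and *Itgav* at −0.23. Over the whole list 8 log2 fold changes were positive and 8 negative, some of them close to 0.

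Of the 16 matrix partners, 15 had a value in every library, and 1 was higher and 1 lower at an unadjusted p under 0.05, where 0.451% and 0.458% of all genes were. *Dcn*, decorin, a proteoglycan that binds active TGF-β, had log2 values of 7.47 and 8.49 in reporter+ and 6.67 and 6.51 in reporter− libraries, a log2 fold change of 1.39 (SE 0.39). *Mfap5*, a microfibril protein, had 3.01 and 3.35 against 3.72 and 4.07, which gave a log2 fold change of −0.72 (SE 0.21). Among fibres that hold the latent complex, *Fn1* was at −0.54 and *Fbn1* at −0.40, and the elastic fibre gene *Emilin1* was at 0.10, none of them past p under 0.05. The list had 4 positive and 11 negative log2 fold changes, with a median of −0.16. That median rested on single libraries: it was 0.045 without reporter+ 2, 0.069 without reporter− 3, −0.097 without reporter+ 3 and −0.389 without reporter− 2.

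None of the 10 accessory receptor genes and none of the 16 SMAD and SMAD regulator genes had an unadjusted limma p under 0.05, with medians of 0.015 and −0.084. The receptor partners went both ways, with a median absolute log2 fold change of 0.290, beside 0.119 over all genes tested, while that of the SMAD list was 0.1245. Leaving out single libraries moved the medians over −0.0062 to 0.020 and over −0.148 to −0.040. Among genes averaging 0 or more, the largest differences with the same sign at both numbers were, among receptor partners, *Dab2* (0.42), an adaptor protein gene, *Bambi* (0.40), a decoy receptor, the co-receptor *Nrp1* (0.15), *Acvrl1* (−0.43), the type I receptor ALK1, the co-receptor *Cd109* (−0.40) and the receptor-associated protein *Tgfbrap1* (−0.18). *Acvrl1* is chiefly known from endothelial cells. Their 6 markers with a value throughout had a median log2 fold change of −2.50, but each averaged under 0 on the log2 scale. *Dab2* is also a gene of macrophages, whose sums were higher in reporter+. The part of either cell type was not tested. Among SMAD regulators they were the deubiquitinase *Usp15* (0.12), the ubiquitin ligases *Nedd4l* (−0.28) and *Smurf1* (−0.23), and the inhibitory *Smad6* (−0.20). The receptor-activated *Smad2* and *Smad3* had log2 fold changes of −0.08 and −0.13, and the shared *Smad4* −0.02, and these 3 were picked after their values were seen.

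Of the 21 genes known to respond to TGF-β, 1 was higher and 1 lower at an unadjusted p under 0.05 (0.451% and 0.458% over all genes), 7 log2 fold changes were positive and 14 negative, and the median was −0.12. It lay between −0.279, without reporter− 2, and −0.051, without reporter− 3 or reporter+ 2, when 1 library was left out. *Tsc22d1*, a TGF-β-stimulated gene, had log2 values of 5.75 and 5.78 in reporter+ and 5.40 and 5.00 in reporter− libraries, a log2 fold change of 0.56 (SE 0.19). *Cdkn1a*, the cell cycle inhibitor p21, had 4.92 and 5.00 against 5.38 and 5.55, a log2 fold change of −0.51 (SE 0.15). Both lay outside the rule for named genes and were picked after their values were seen.

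The largest differences in the target list belonged to genes that varied strongly within a population. *Acta2*, smooth muscle actin, had log2 values of 1.30 and 3.66 in reporter+ and 3.18 and 4.32 in reporter− libraries, and the populations overlapped around a log2 fold change of −1.27 (SE 0.89). *Tagln*, transgelin, had 1.61 and 3.52 against 3.49 and 3.99, a log2 fold change of −1.17 (SE 0.67). Both are also genes of smooth muscle cells, whose summed markers were lower in reporter+ at both numbers, and the part of these cells was not tested. *Postn*, periostin, at −1.14, and *Angptl4* (0.84), a secreted regulator of lipid uptake, *Tgfbi* (0.63), a matrix protein, and the oxidase gene *Nox4* (0.59) did not pass at p under 0.05.

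In the activin branch, which uses its own type I and type II receptors but the same SMADs, 10 of 12 genes had a value in every library and none had an unadjusted p under 0.05. *Mstn* was blank throughout and *Nodal* had a value in 1 library. Both reporter+ libraries lay below both reporter− libraries for 3 of the 10, against 8.1% of all genes: the low *Acvr1c*, the receptor ALK7, at −1.50, picked after its value was seen (−0.10 at number 2 and −2.91 at number 3, with reporter+ 3 alone far down), the activin subunit *Inhbb* at −0.40 and *Fst*, the activin inhibitor follistatin, at −0.21. The populations overlapped for *Acvr1b*, the activin type I receptor ALK4, at 0.29 and for the ligand *Gdf11* at −0.41. The median log2 fold change was −0.025, but it was 0.024 without reporter+ 3, −0.074 without reporter− 2, −0.208 without reporter+ 2 and −0.227 without reporter− 3.

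**Figure D5:**
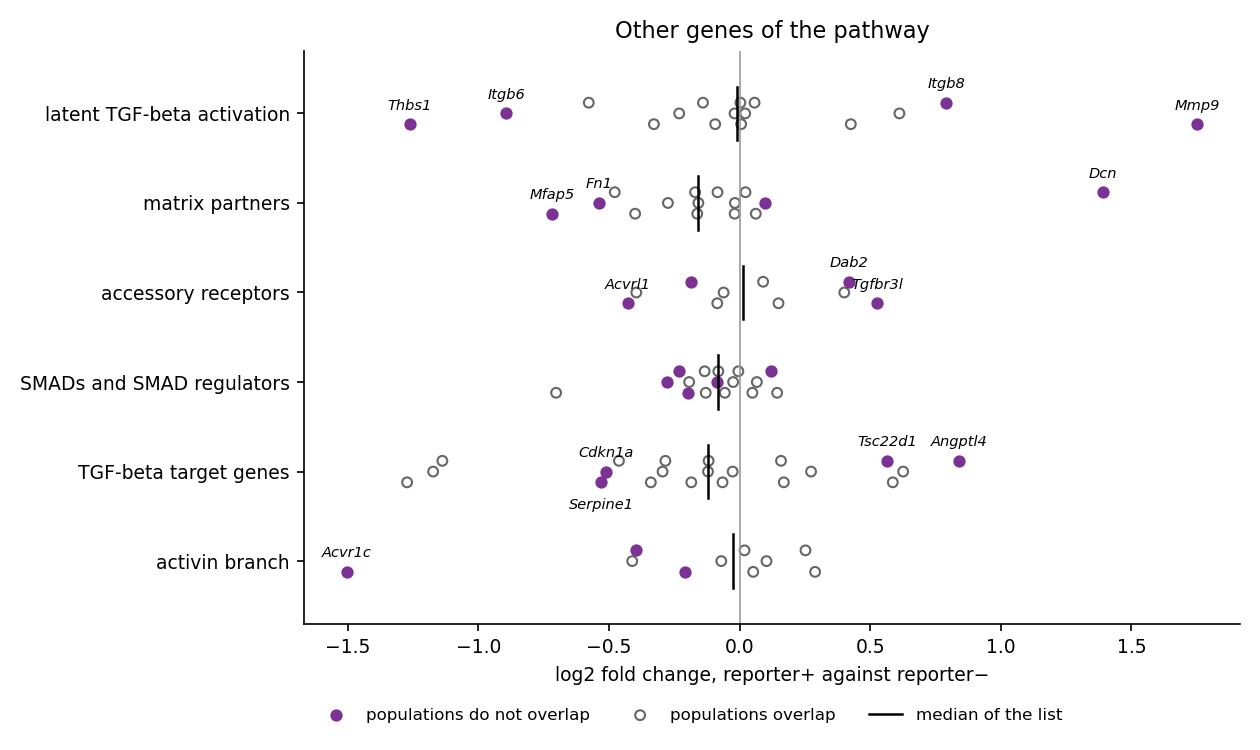
Log2 fold change of reporter+ against reporter− for the genes of 6 pathway lists, each a point. Filled points are genes whose populations do not overlap (those beyond a log2 fold change of about 0.4 in size are named), open points overlap, and black bars are list medians. *Mmp9* at 1.75 and *Acvr1c* at −1.50, low in reporter+ 3 alone, lie farthest out, and each median is within 0.16 of 0.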

How the data were processed

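Total RNA of 4 libraries was sequenced by the authors with stranded paired-end Illumina libraries. The deposited log2 values were quantile normalized by the authors, 1 value per gene symbol and library, blank where there was no signal. The submitters' processing notes name bcl2fastq 2.17.1.14, Partek 7.0 and the build GRCm38.p6, without their role, and the aligner, counting and annotation are not given in the sources used here. Depth is therefore unknown.

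Log2 fold changes, reporter+ mean minus reporter− mean (2 libraries each), were fitted for the 14415 genes that had no blank, with limma 3.58.1 in R 4.3.3 (lmFit, eBayes with a trend on the mean, two-sided, no block), with Benjamini-Hochberg adjustment over all of them and a threshold of 0.05. Summaries used Python 3.11.15, numpy 2.4.6 and pandas 2.3.3, and plots matplotlib 3.10.9. Positions are from GENCODE M21.

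The members and lists were chosen with earlier results of these data known. Besides the members, the text names, for each pathway list, up to 3 genes in each direction with the largest log2 fold change that average 0 or more on the log2 scale and have the same direction at both heading numbers, and the 3 pathway genes nearest to each of the 3 most variable members. Alternatives were the heading number as a block, a pseudocount of 1, a filter on the mean, filled blanks, equal sums, no trend, and leaving out each library.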

Additional observations from a re-analysis of the deposited data

How the results depend on the processing

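No member passed the adjusted test under those of the 11 alternatives that kept all 4 libraries. The block, the filter on the mean and the filled blanks could not change a member's log2 fold change. The block is balanced over the populations, and no member had a blank or averaged under 0. Equal linear sums shifted every gene by the same small amount. No member changed direction under that shift or under the pseudocount of 1. With the heading number as a replicate block, limma called 29 of 14415 genes (913 at an unadjusted p under 0.05) instead of 0 (131 unadjusted). None of the 29 was a member, and whether any was in a pathway list is not given here. With the block, 2 members instead of 1 had an unadjusted p under 0.05, *Tgfb2* and also *Ltbp1*, whose SE was 0.12 instead of 0.23. Their adjusted p was then 0.272 and 0.466. The count was 1 with the block but no trend, and 0 with no trend and no block and without each of the 4 libraries, where *Tgfb2* too had an unadjusted p over 0.05. With the block but without the trend 0 genes passed (941 unadjusted). The labels do not say that the number marks a pairing. As a hint from the data, deviations of same-numbered libraries correlated at 0.681 across genes, and over all genes each library was closer to the other population's library of its number (r = 0.984 and 0.982) than to its own population's (0.952 and 0.957). The other settings called 0 genes, with 62 (filter on the mean) to 273 (no trend) unadjusted.

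Leaving out each library in turn, which unbalances the numbers and assumes that the lone library varies like the others, turned the direction of 6 members. The log2 fold change then ranged from −0.41 to 0.50 for *Tgfb1*, −0.38 to 0.46 for *Tgfb3*, −0.76 to 1.15 for *Tgfbr1*, −0.10 to 0.10 for *Tgfbr3*, −1.40 to 0.95 for *Ltbp2* and −0.025 to 0.0063 for *Ltbp3*. It kept its direction for *Tgfb2* (0.46 to 0.56), *Tgfbr2* (−0.24 to −0.068), *Ltbp1* (−0.62 to −0.13) and *Ltbp4* (−0.34 to −0.016). The median over the members ranged from −0.24 to −0.021, the number with reporter+ above from 1 to 3, and the number below from 3 to 6. These counts rest on 3 libraries and have no share over all genes beside them. The medians of the pathway lists moved as well, and those of the matrix partners, the accessory receptors and the activin branch turned direction, as given beside them. Since no depth is given, counting error cannot be set beside these values.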

Other observations

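The largest differences between heading numbers among the 79 pathway genes averaging 0 or more on the log2 scale were those of *Fmod*, *Postn*, *Cd109* and *Tgm2*. They were picked after the values were seen and carry no test. *Fmod*, fibromodulin, a matrix proteoglycan of tendon that binds TGF-β, had log2 values of 5.49 and −0.16 in reporter+ libraries 2 and 3 and of 5.06 and 1.23 in reporter− libraries 2 and 3, a mean difference of −4.74. *Cd109*, a TGF-β co-receptor, had 4.90 and 1.66 in reporter+ and 5.08 and 2.27 in reporter−, a mean difference of −3.02. *Postn* and *Tgm2* went the other way. *Postn* had −1.13 and 2.04 in reporter+ and 0.14 and 3.04 in reporter−, a mean difference of 3.03. *Tgm2* had 3.67 and 6.43 in reporter+ and 3.55 and 5.70 in reporter−, a mean difference of 2.46. In each of these 4 genes the number separated the libraries in both populations, by more than any of the 10 members, of which *Ltbp2* had the largest mean difference, at −1.90.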
